A study of Homo sapiens with 60 samples.

Results

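The alpha and beta tubulin genes were followed across every extract, dose and vehicle library of an RNA sequencing study of HepG2 cells. The members were 10 named genes, 4 alpha (TUBA1A, TUBA1B, TUBA1C, TUBA4A) and 6 beta (TUBB, TUBB2A, TUBB2B, TUBB3, TUBB4B, TUBB6), matched by symbol to the Ensembl identifiers of the count table. They were 10 of 60675 gene identifiers, and all 10 passed the filter on low counts that left 16982 tested genes.

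HepG2 is a human liver cancer cell line that keeps many functions of hepatocytes. The cells were treated for 24 h with 70% ethanol extracts of medicinal plants, and RNA was sequenced from 60 libraries in 25 groups. The extracts of single plants were Polygalae Radix, given at 10, 50 and 250 ug/mL, Aucklandiae Radix, given at 11.2, 56 and 280 ug/mL, and Menthae Herba and Saposhnikoviae Radix, each given at 20, 100 and 500 ug/mL. Multi-herb decoctions were Guibi-tang, Saengmaek-san, Okbyeongpung-san and Soyo-san, each given at 20, 100 and 500 ug/mL. The steps are called low, medium and high dose here. By the design text the high dose was 500 ug/mL, or the concentration giving 20% inhibition where that was lower, as it was for Polygalae Radix and Aucklandiae Radix. There were 2 libraries a dose for Soyo-san, Aucklandiae Radix and Polygalae Radix, 1 for Okbyeongpung-san and 3 for the other extracts. Vehicle had 3 libraries, with 0.1% DMSO in the labels and 2% in the design text. Sample titles placed all 60 libraries, vehicle included, in batch D. Sample codes of the extracts began with a number shared by 2 extracts, called a set here, whereas those of vehicle began with a code of their own. An effect of the extract and one of the set therefore cannot be told apart in any comparison with vehicle. High, medium and low doses of an extract shared a set. As background, traditional recipes of Guibi-tang include the roots of Polygala and Aucklandia, and those of Soyo-san include Menthae Herba.

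Microtubules are hollow filaments built from dimers of 1 alpha and 1 beta tubulin, and they carry cargo, shape the cell and form the mitotic spindle. Cells match tubulin synthesis to the pool of free dimers. When free dimers rise, the factor TTC5 binds the first residues of a nascent tubulin chain on the ribosome and, through the adaptor SCAPER, brings the CCR4-NOT deadenylase to the message, which is then degraded. The peptide read by TTC5 is methionine-arginine-glutamate followed by isoleucine in beta tubulins and by cysteine in alpha tubulins. Members of the family differ in where they are used. TUBA1B, TUBA1C, TUBB and TUBB4B are made in most dividing cells, TUBA1A, TUBB2A, TUBB2B and TUBB3 are abundant in neurons, TUBA4A lacks the encoded last tyrosine of other alpha tubulins, and TUBB6 is a divergent beta tubulin that can destabilise microtubules when overproduced.

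The start of each coding sequence is shown because it encodes the peptide on which this control of tubulin messages acts. The first 30 coding bases of the annotated transcript are given 5′ to 3′ on the sense strand (GRCh38, GENCODE 29), with the 12 bases of the first 4 codons in capitals where they encode the peptide.
TUBA1A: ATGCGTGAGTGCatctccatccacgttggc
TUBA1B: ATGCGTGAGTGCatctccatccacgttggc
TUBA1C: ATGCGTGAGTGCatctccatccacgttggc
TUBA4A: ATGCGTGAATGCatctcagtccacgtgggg
TUBB: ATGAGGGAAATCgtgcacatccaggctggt
TUBB2A: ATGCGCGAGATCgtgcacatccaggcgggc
TUBB2B: ATGCGTGAGATCgtgcacatccaggcgggc
TUBB3: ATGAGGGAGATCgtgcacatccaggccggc
TUBB4B: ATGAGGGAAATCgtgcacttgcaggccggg
TUBB6: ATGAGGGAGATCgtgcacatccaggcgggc
TUBG1: atgccgagggaaatcatcaccctacagttg
TUBG2: atgccccgggagatcatcaccctgcagctg
All 10 members started with codons for the peptide. The gamma tubulins TUBG1 and TUBG2, which nucleate microtubules, are shown for comparison and did not. Of 19511 coding genes examined, 19 started this way, of which 10 were the members, 9 were other tubulins and 0 were anything else. The start was thus common to members that went down and to members that went up in the comparisons that follow. Whether this control acted on the members was not tested.

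On GRCh38, TUBA1A lies on chromosome 12 at 49184796 to 49189324 on the minus strand, TUBA1B on chromosome 12 at 49127782 to 49131397 on the minus strand, and TUBA1C on chromosome 12 at 49188736 to 49274603 on the plus strand, where its annotation overlaps TUBA1A. TUBB lies on chromosome 6 at 30720201 to 30725426, and TUBB2A and TUBB2B are neighbours on chromosome 6 at 3153669 to 3157526 and 3224261 to 3231730. TUBA4A is on chromosome 2 (219249711 to 219278170), TUBB3 on chromosome 16 (89921392 to 89938761), TUBB4B on chromosome 9 (137241213 to 137243707) and TUBB6 on chromosome 18 (12307669 to 12344320). Coding sequences were 98.2% identical between TUBB2A and TUBB2B, 97.2% between TUBA1A and TUBA1B, 96.8% between TUBA1B and TUBA1C and 95.9% between TUBA1A and TUBA1C. The next closest pair, TUBB2A and TUBB3, shared 87.8%. Counts were estimates that share reads among such copies, and 99% of the members' values were not whole numbers, against 9.97% of all values. The latter share covers all 60675 identifiers, of which 16982 passed the filter on low counts, and undetected genes have whole values. It is thus no background for genes at the levels of the members. Because reads are shared among copies, values of TUBA1A, TUBA1B and TUBA1C, and of TUBB2A and TUBB2B, are uncertain as a split. Sums are given where they bear on a call between doses or extracts.

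Library totals ran from 17518496 to 38905920 counts, and the 10 members held 0.2% to 0.524% of a library's counts. All 12 hepatocyte markers examined were detected, with a summed level of 18741 to 59417 CPM (counts scaled to a common library size). A large part of this sum was APOB, with a median of 26783 CPM (5996 to 30861) beside a median sum of 54156 CPM. Changes of the sum given below therefore do not show a change of each hepatocyte marker. None of the 7 neuron markers reached a median of 1 CPM, and their sum lay between 0.07 and 0.61 CPM, which bears on TUBB3, TUBB2A and TUBB2B. The blood marker sum came almost wholly from LYZ, with a median of 1170 CPM. Whether libraries of a group came from separate cultures is not stated, and p-values here rest on variation among libraries that could be wholly technical. In bulk RNA, fewer cells of a kind and less RNA per cell cannot be told apart, and levels are relative to the library's other messages.

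In vehicle, most tubulin message came from a few genes. Per kilobase of transcript, TUBA1B stood at 883 ± 25.4 and TUBB at 881 ± 27.0 CPM per kilobase (SD, n = 3), which did not differ beyond their spread. TUBB4B followed at 431, TUBA1C at 215 and TUBB3 at 121 CPM per kilobase. The remaining members were minor, with TUBB2A at 22.05, TUBA1A at 15.3, TUBB6 at 8.79, TUBB2B at 6.59 and TUBA4A at 1.86 CPM per kilobase. TUBA1B gave 79.2% ± 0.77 of the alpha sum and TUBB gave 59.9% ± 0.13 of the beta sum per kilobase in vehicle.

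With Polygalae Radix, high against low dose, 9 of 10 tubulin messages fell, and TUBB6 alone did not pass the test. The fall was largest in the main alpha gene TUBA1B. In the edgeR quasi-likelihood test with Benjamini-Hochberg adjustment over all tested genes (a call is an adjusted p under 0.05), 33.0% of the 16982 genes were lower in this comparison and 31.1% were higher. The median log2 fold change was -1.09 over the 10 members and -0.01 over all tested genes.

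TUBA1B had 416 and 402 CPM in high dose Polygalae Radix libraries, against 1256 and 1203 CPM in low dose libraries. The log2 fold change of TUBA1B was -1.58 (SE 0.06, adjusted p = 1.42e-27, edgeR), and the groups were far apart. TUBB, the main beta gene, had 839 and 773 CPM at the high dose, against 2239 and 2225 CPM at the low dose. The log2 fold change of TUBB was -1.46 (SE 0.05, adjusted p = 1.27e-29, edgeR), with both high dose libraries below both low dose libraries. TUBB4B had 304 and 264 CPM at the high dose, against 588 and 581 CPM at the low dose, a log2 fold change of -1.03. TUBA1C had 219 and 206 CPM at the high dose, against 516 and 497 CPM at the low dose, a log2 fold change of -1.24. Neither gene's groups overlapped. Here and below, the share of all tested genes whose dose groups did not overlap is not given. Lack of overlap therefore describes the libraries and stands without a background. TUBB3 fell by 1.16, TUBA1A by 1.27, TUBA4A by 0.79, TUBB2B by 0.72 and TUBB2A by 0.60 on the log2 scale. TUBB6 had 19.5 and 17.1 CPM at the high dose, against 19.4 and 17.6 CPM at the low dose, and its groups overlapped (log2 fold change 0.01, SE 0.09, adjusted p = 0.93, edgeR). The sum of TUBA1A, TUBA1B, TUBA1C and the antisense gene TUBA1B-AS1 fell by 1.43 and the sum of TUBB2A and TUBB2B by 0.62 on the log2 scale. The hepatocyte marker sum averaged 20647 ± 2696 CPM at the high dose and 53330 ± 1013 CPM at the low dose, and mitochondrial genes held 17.6% ± 0.16 of counts at the high dose and 12.5% ± 0.59 at the low dose (SD, n = 2). Their part in the tubulin result was not tested.

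**Figure D1:**
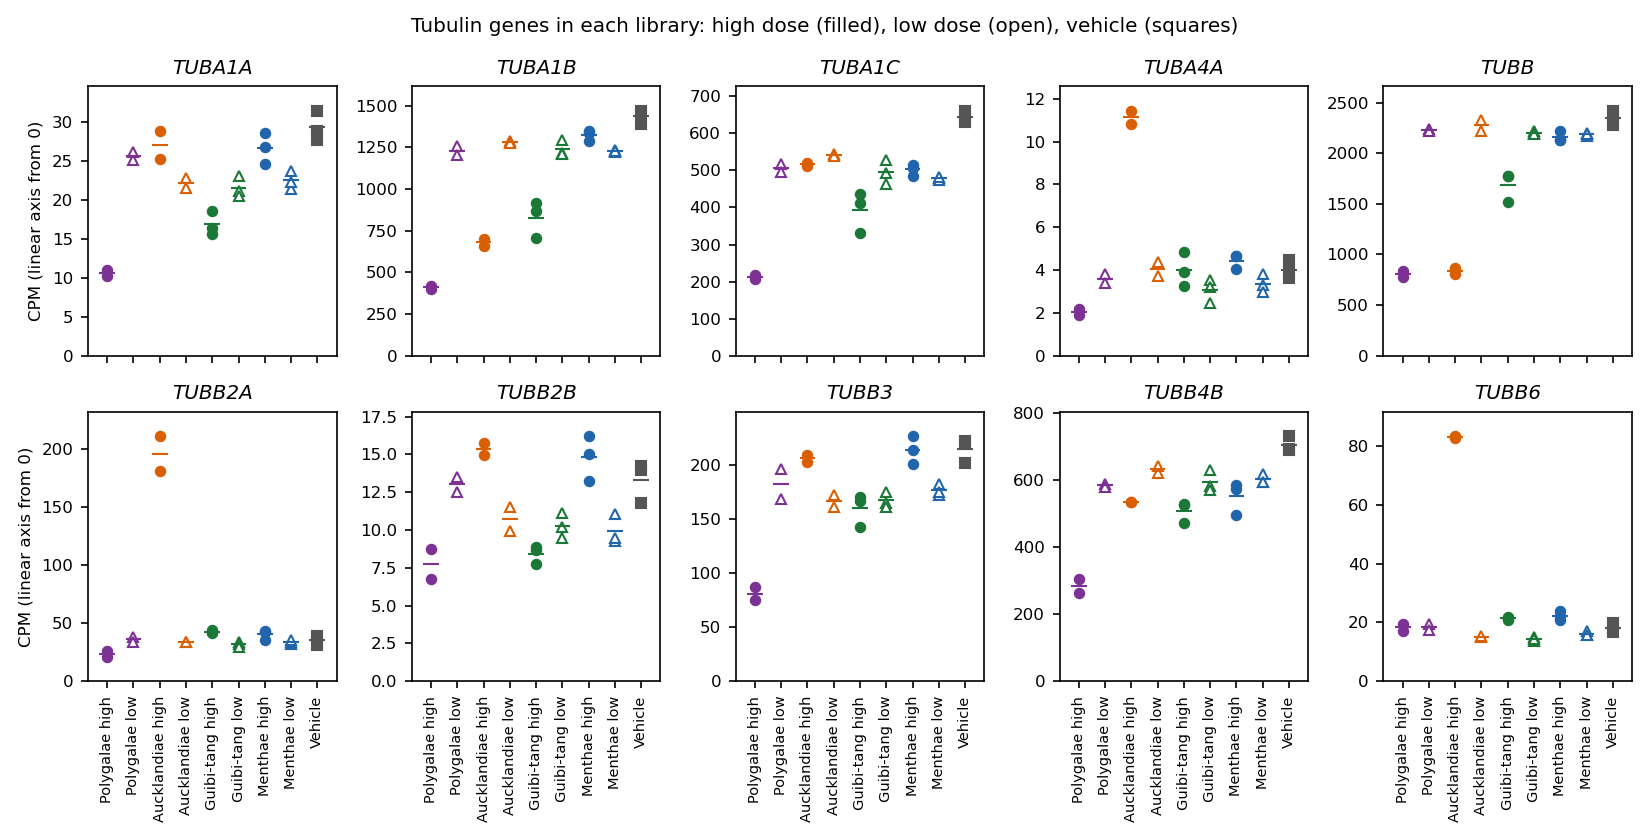
Level of each of the 10 tubulin genes (CPM, linear axes from 0) in every library of 4 extracts at the high dose (filled circles) and the low dose (open triangles) and in vehicle (squares), with short lines at group means. In Aucklandiae Radix at the high dose TUBB stood at 809 and 869 CPM while TUBB2A stood at 211 and 181 CPM, whereas in Polygalae Radix at the high dose every gene but TUBB6 stood below its low dose.

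With Aucklandiae Radix, high against low dose, members were called in both directions. TUBB and TUBA1B, the most abundant beta and alpha messages, and TUBB4B fell, whereas TUBB3 and the minor genes TUBB2A, TUBB6, TUBA4A, TUBB2B and TUBA1A rose. TUBA1C did not pass the test (log2 fold change -0.06). Among all tested genes 33.9% were higher and 35.5% lower in this comparison, so calls in both directions were not particular to the tubulin genes. The median log2 fold change of the 10 members was 0.31, against -0.02 for all tested genes.

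TUBB2A had 211 and 181 CPM in high dose Aucklandiae Radix libraries, against 33.8 and 34.1 CPM in low dose libraries. This was a 5.83-fold difference (log2 fold change 2.54, SE 0.09, adjusted p = 1.64e-28, edgeR), the largest of any member in any comparison of high with low dose. TUBB6 had 83.4 and 82.8 CPM at the high dose, against 15.0 and 15.3 CPM at the low dose, a 5.52-fold difference (log2 fold change 2.46, SE 0.08, adjusted p = 4.78e-29, edgeR). High and low dose libraries of both genes were clearly separate. TUBA4A had 10.8 and 11.5 CPM at the high dose, against 4.35 and 3.73 CPM at the low dose (log2 fold change 1.47, SE 0.15, adjusted p = 4.16e-12, edgeR). TUBB had 809 and 869 CPM at the high dose, against 2331 and 2225 CPM at the low dose (log2 fold change -1.43, SE 0.05, adjusted p = 2.72e-29, edgeR). Both high dose libraries of TUBB lay below every other library of Aucklandiae Radix. TUBA1B had 661 and 698 CPM at the high dose, against 1286 and 1278 CPM at the low dose (log2 fold change -0.90, SE 0.06, adjusted p = 4.95e-19, edgeR).

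Changes of the other members with Aucklandiae Radix were smaller. TUBB2B rose by 0.53 and TUBB3 by 0.32 on the log2 scale. TUBA1A had 28.9 and 25.3 CPM at the high dose, against 21.6 and 22.9 CPM at the low dose, with a log2 fold change of 0.30. Without high dose replicate 2 its log2 fold change was 0.20 and was not called. TUBB4B had 534 and 536 CPM at the high dose, against 621 and 643 CPM at the low dose, a log2 fold change of -0.23 that was -0.09 and not called when library totals replaced TMM scaling. Under that scaling the median of all tested genes moved by 0.13 on the log2 scale. The sum of the TUBA1 genes and TUBA1B-AS1 fell by 0.57, and the sum of TUBB2A and TUBB2B rose by 2.27 on the log2 scale. The hepatocyte marker sum averaged 24573 ± 349 CPM at the high dose and 52870 ± 119 CPM at the low dose, and the mitochondrial share was 8.10% ± 0.11 at the high dose and 13.2% ± 1.14 at the low dose (SD, n = 2). Their part in the tubulin result was not tested.

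The make-up of the beta messages therefore shifted at the high dose of Aucklandiae Radix. TUBB gave 33.9% ± 1.67 of the beta sum per kilobase at the high dose and 62.4% ± 1.46 at the low dose (SD, n = 2). TUBB2A and TUBB6 together gave 17.6% ± 1.5 at the high dose and 2.09% ± 0.04 at the low dose. In Polygalae Radix the same pair gave 4.29% ± 0.20 at the high dose and 2.37% ± 0.14 at the low dose, in a beta sum that was itself 549 ± 43.4 CPM per kilobase at the high dose and 1334 ± 20.1 at the low dose. The beta sum of Aucklandiae Radix was 929 ± 0.83 CPM per kilobase at the high dose and 1367 ± 13.1 at the low dose. Among alpha messages, TUBA1B gave 68.6% ± 1.14 of the sum at the high dose of Aucklandiae Radix and 80.3% ± 0.03 at the low dose. TUBA1C gave 28.3% ± 0.89 at the high dose and 18.4% ± 0.06 at the low dose. Both high dose libraries lay below both low dose libraries in the alpha sum and in the beta sum.

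**Figure D2:**
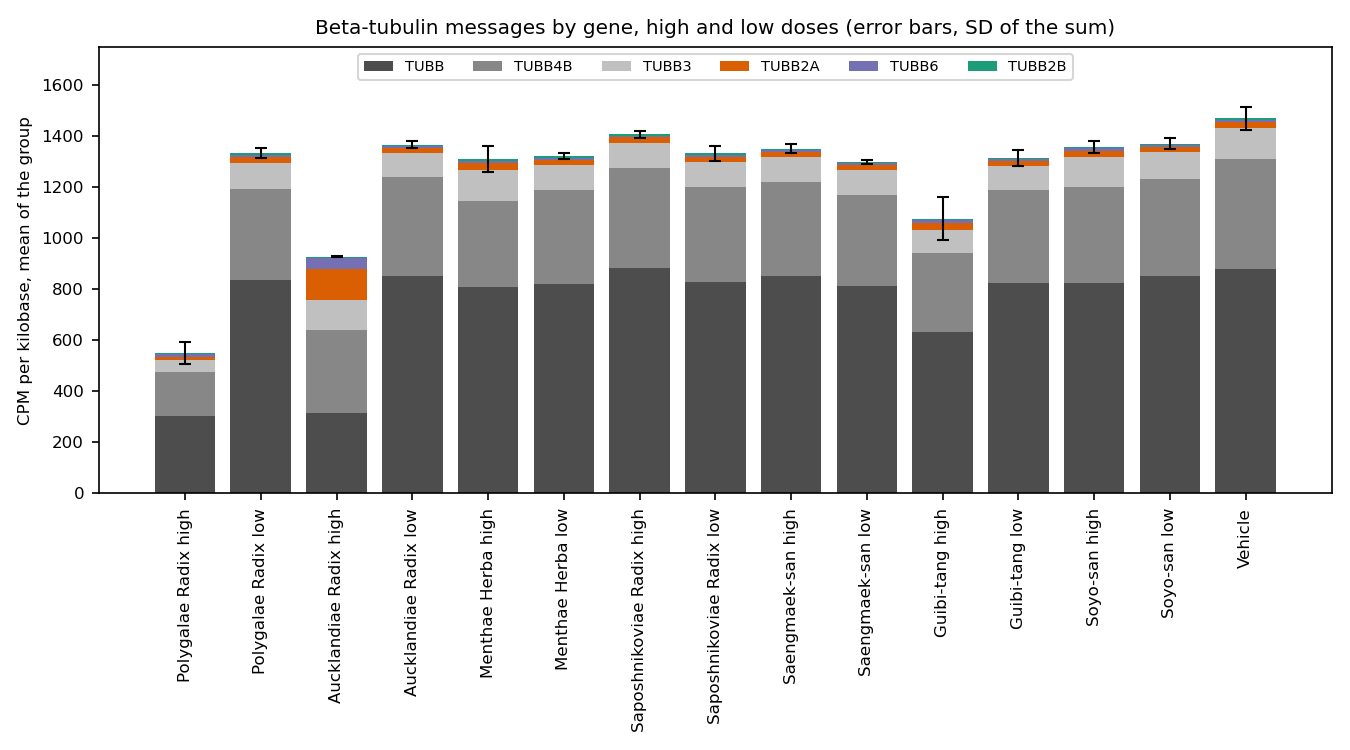
Stacked mean level of the 6 beta-tubulin genes (CPM per kilobase of transcript) in high and low dose groups of 7 extracts and in vehicle, with error bars for the SD of the sum over libraries. The sum was 549 in Polygalae Radix and 929 in Aucklandiae Radix at the high dose, and TUBB2A with TUBB6 formed 17.6% of it in Aucklandiae Radix.

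Polygalae Radix and Aucklandiae Radix shared a set, so the difference between their dose responses could be tested directly, although their high doses were 250 and 280 ug/mL and their low doses 10 and 11.2 ug/mL. The high-minus-low change differed for 9 of 10 members, each less negative or more positive with Aucklandiae Radix than with Polygalae Radix. Over all tested genes the difference was called in the same direction for 31.4% and in the other for 28.7%. It was widest for TUBB2A (3.14 on the log2 scale, adjusted p = 3.53e-25, edgeR), TUBB6 (2.45) and TUBA4A (2.26). TUBB had a difference of 0.03 (SE 0.07, adjusted p = 0.73, edgeR) and did not pass the test. The sum of the TUBA1 genes and TUBA1B-AS1 differed by 0.85 and the sum of TUBB2A and TUBB2B by 2.89. The change of TUBB itself was -1.43 with Aucklandiae Radix and -1.46 with Polygalae Radix.

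With Guibi-tang, high against low dose, 6 members fell and 3 rose. TUBA1B, TUBB, TUBA1A, TUBA1C, TUBB2B and TUBB4B fell, TUBB6, TUBB2A and TUBA4A rose, and TUBB3 did not pass the test (-0.06). Of all tested genes 16.8% were higher and 17.5% lower. The median log2 fold change was -0.25 over the members and 0.00 over all tested genes.

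TUBA1B had 866, 705 and 914 CPM in high dose Guibi-tang libraries, against 1297, 1214 and 1212 CPM in low dose libraries. Its log2 fold change was -0.58 (SE 0.05, adjusted p = 1.6e-14, edgeR), and high dose replicate 2 was the lowest of the 6 libraries. TUBB had 1780, 1519 and 1771 CPM at the high dose, against 2225, 2196 and 2196 CPM at the low dose (log2 fold change -0.38, adjusted p = 1.22e-11, edgeR). TUBB6 had 21.0, 21.9 and 21.5 CPM at the high dose, against 15.1, 13.8 and 14.4 CPM at the low dose (log2 fold change 0.57, adjusted p = 1.4e-08, edgeR). High and low dose libraries did not overlap for any of TUBA1B, TUBB and TUBB6, for which no share of all tested genes is given as background. TUBB2A had 42.8, 41.4 and 44.1 CPM at the high dose, against 34.0, 31.8 and 29.6 CPM at the low dose (log2 fold change 0.43, adjusted p = 1.11e-05, edgeR). TUBA4A had 3.92, 3.25 and 4.85 CPM at the high dose, against 3.54, 2.44 and 3.19 CPM at the low dose, and these groups overlapped. Its log2 fold change of 0.38 (adjusted p = 0.033, edgeR) was no longer called with DESeq2, with only these groups in the fit, with no filter on low counts, or when high dose replicate 1, high dose replicate 3, low dose replicate 2 or low dose replicate 3 was left out. TUBB2B fell by 0.28, a call that was lost without high dose replicate 2 (-0.23) or low dose replicate 3 (-0.21) and with library totals in place of TMM (-0.19). The sum of TUBB2A and TUBB2B rose by 0.28 and the sum of the TUBA1 genes and TUBA1B-AS1 fell by 0.50. The hepatocyte marker sum averaged 39693 ± 774 CPM at the high dose and 54866 ± 1174 CPM at the low dose of Guibi-tang, and the blood marker sum averaged 648 ± 54.0 CPM at the high dose and 1184 ± 29.1 CPM at the low dose (SD, n = 3). High and low dose means of the blood marker sum were 591 and 1268 CPM in Polygalae Radix and 662 and 1179 CPM in Aucklandiae Radix. They were 1561 and 1222 CPM in Menthae Herba and 1636 and 1235 CPM in Soyo-san. The part of these marker sums in the tubulin result was not tested.

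Set against Saengmaek-san, which shared its set and doses, Guibi-tang differed in the high-minus-low change of 6 members. The difference was negative for TUBA1B (-0.69), TUBB (-0.45), TUBA1C (-0.45) and TUBB4B (-0.26), and positive for TUBB6 (0.74) and TUBB2A (0.45). Over all tested genes it was negative and called for 10.2% and positive and called for 9.40%. It was -0.61 for the sum of the TUBA1 genes and TUBA1B-AS1 and 0.33 for the sum of TUBB2A and TUBB2B, both called. The alpha sum in Guibi-tang was 651 ± 86.9 CPM per kilobase at the high dose and 940 ± 40.4 at the low dose, and the beta sum was 1076 ± 84.4 at the high dose and 1316 ± 30.6 at the low dose (SD, n = 3). The ratio of alpha to beta sums was 0.60 ± 0.04 at the high dose and 0.71 ± 0.01 at the low dose of Guibi-tang. It was 0.60 ± 0.03 at the high dose and 0.70 ± 0.01 at the low dose of Polygalae Radix.

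With Menthae Herba, high against low dose, 6 members rose by modest amounts and none fell. Higher genes made up 10.8% and lower genes 12.5% of all tested genes, and the median log2 fold change was 0.25 over the members and 0.00 over all tested genes. The genes that rose were TUBB2B, TUBB6, TUBA4A, TUBB3, TUBB2A and TUBA1A, all of them minor members in vehicle except TUBB3.

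TUBB2B had 13.2, 16.2 and 15.0 CPM in high dose Menthae Herba libraries, against 9.27, 9.48 and 11.1 CPM in low dose libraries (log2 fold change 0.57, SE 0.09, adjusted p = 1.54e-06, edgeR). TUBB6 had 20.7, 23.8 and 22.3 CPM at the high dose, against 15.7, 16.96 and 15.7 CPM at the low dose (log2 fold change 0.46, SE 0.07, adjusted p = 1.89e-06, edgeR). TUBB3 had 201, 226 and 213 CPM at the high dose, against 182, 172 and 175 CPM at the low dose (log2 fold change 0.28, adjusted p = 0.000146, edgeR). High and low dose groups did not overlap for any of these genes, again with no share of all tested genes given as background. The calls of TUBA4A (0.39), TUBB2A (0.27) and TUBA1A (0.24) were each lost when certain single libraries were left out. TUBA4A lost its call with DESeq2 and when replicate 2 or 3 of either dose was left out, TUBB2A without high dose replicate 2 or low dose replicate 1, and TUBA1A without high dose replicate 3. The sum of the TUBA1 genes and TUBA1B-AS1 was not called in Menthae Herba (0.11, adjusted p = 0.0971, edgeR), whereas the sum of TUBB2A and TUBB2B rose by 0.35. TUBA1B, not called in the fit reported here (0.11), was called higher with library totals in place of TMM (0.15), with no filter on low counts (0.13), with a GC and length trend removed (0.10) and with only these groups in the fit (0.11). TUBB4B, not called in the fit reported here, was called lower with a GC and length trend removed (-0.12) and without high dose replicate 3 (-0.17). TUBB had 2135, 2137 and 2219 CPM at the high dose, against 2168, 2205 and 2193 CPM at the low dose, and these groups overlapped (log2 fold change -0.01). Set against Saposhnikoviae Radix, which shared its set and doses, the high-minus-low change of Menthae Herba was higher for TUBB2B (0.65), TUBB6 (0.61) and TUBB3 (0.26), where 4.34% of all tested genes differed in that direction, and for the sum of TUBB2A and TUBB2B (0.38). The hepatocyte marker sum averaged 29582 ± 1806 CPM at the high dose and 56094 ± 1119 CPM at the low dose of Menthae Herba (SD, n = 3), and its part in the tubulin result was not tested.

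**Figure D3:**
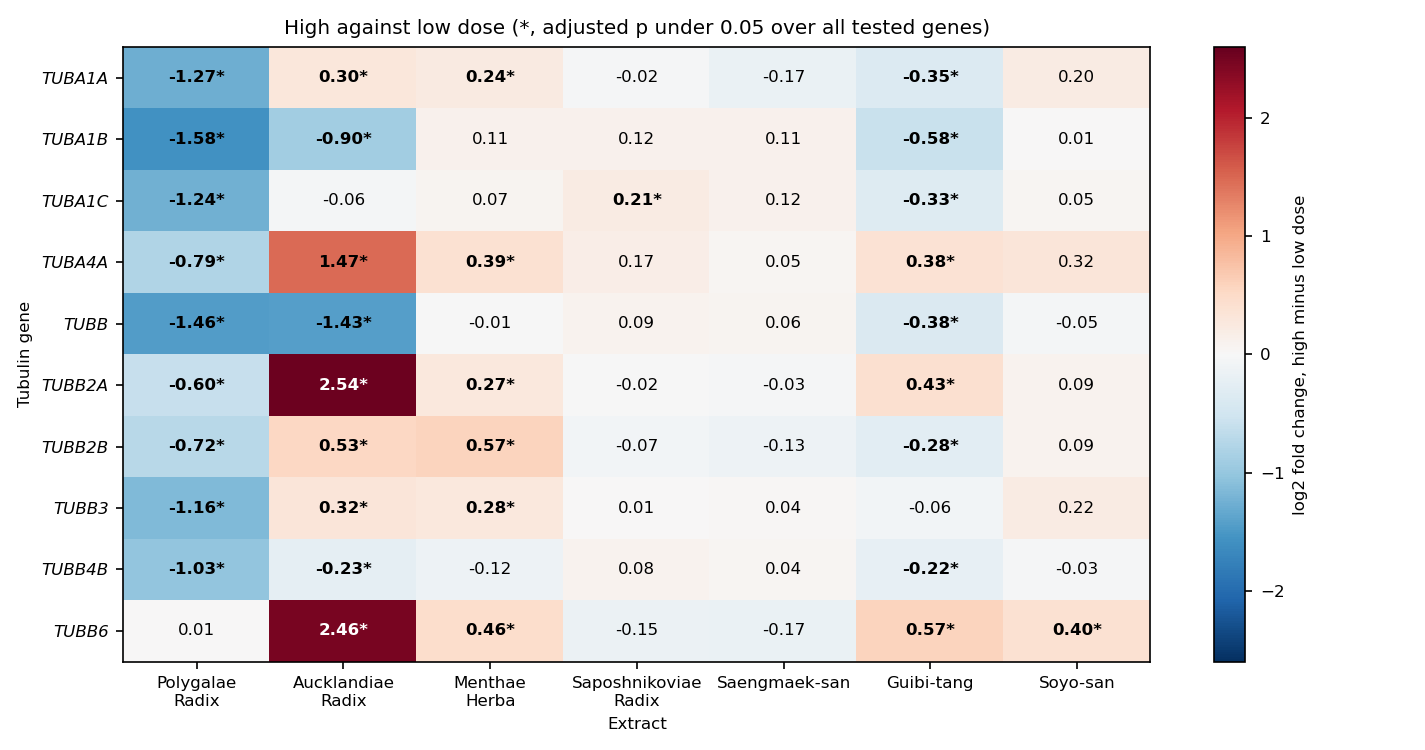
Log2 fold change of each tubulin gene, high minus low dose, in 7 extracts, with asterisks where the adjusted p over all tested genes was under 0.05. Values were -0.60 or lower for 9 genes in Polygalae Radix, and reached 2.54 for TUBB2A and 2.46 for TUBB6 in Aucklandiae Radix.

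The other extracts moved few members. With Saposhnikoviae Radix TUBA1C rose by 0.21 on the log2 scale (adjusted p = 0.0356, edgeR), where 0.389% of all tested genes were higher and 0.442% lower. TUBA1C had 565, 551 and 548 CPM at the high dose, against 481, 464 and 495 CPM at the low dose, and the groups did not overlap, but the call was lost without any 1 of the 6 libraries. The sum of the TUBA1 genes and TUBA1B-AS1 was not called there (0.15, adjusted p = 0.143, edgeR). With Soyo-san TUBB6 rose by 0.40 (adjusted p = 0.00514, edgeR), where 2.13% of all tested genes were higher and 1.83% lower. TUBB6 had 18.3 and 20.2 CPM at the high dose of Soyo-san, against 14.8 and 14.5 CPM at the low dose, and the call was lost without high dose replicate 2 or low dose replicate 2. TUBB3 of Soyo-san stood at 210 and 213 CPM at the high dose, against 186 and 178 CPM at the low dose, and missed the threshold (log2 fold change 0.22, adjusted p = 0.0639, edgeR). With Saengmaek-san 0 members were called by edgeR, where 0.436% of all tested genes were, and the members lay between -0.17 (TUBA1A, TUBB6) and 0.12 (TUBA1C). No member of Saengmaek-san was called by DESeq2 either, and 4 members (TUBA1A, TUBA1B, TUBA1C and TUBB6) had an unadjusted p under 0.05 in edgeR. The share of 0.436% is for the adjusted p, and none is given for the unadjusted p, so these 4 stand without a background. With Okbyeongpung-san, which had a single library a dose and no test, TUBB2B stood at 8.06 CPM at the high dose and 12.0 CPM at the low dose (log2 difference -0.57). The other members of Okbyeongpung-san lay between -0.15 (TUBB3) and 0.22 (TUBA4A).

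At the medium dose the members had moved little. With Polygalae Radix, medium against low dose, TUBA1A (-0.40), TUBA1B (-0.23) and TUBB (-0.16) fell, where 5.09% of all tested genes were lower. The count was 1 without low dose replicate 2 or medium dose replicate 3, and 0 with only these groups in the fit. The sum of the TUBA1 genes and TUBA1B-AS1 was not called (-0.17, adjusted p = 0.0583, edgeR). TUBA1B had 1256 and 1203 CPM at the low dose, 1078 and 1009 CPM at the medium dose and 416 and 402 CPM at the high dose of Polygalae Radix. With Aucklandiae Radix TUBA1B (-0.27), TUBA1C (-0.24) and TUBB (-0.15) fell at the medium dose, where 2.03% of all tested genes were lower, and the count was 1 without either low dose library or medium dose replicate 3. The same sum fell by 0.26 with Aucklandiae Radix. TUBB2A of Aucklandiae Radix had 33.8 and 34.1 CPM at the low dose, 36.4 and 36.5 CPM at the medium dose and 211 and 181 CPM at the high dose. It was not called at the medium dose (log2 fold change 0.10). TUBA1A of Aucklandiae Radix had 21.6 and 22.9 CPM at the low dose, 19.1 and 19.8 CPM at the medium dose and 28.9 and 25.3 CPM at the high dose, so its order was not monotone. In the other extracts 0 members were called by edgeR at the medium dose. At an unadjusted p under 0.05 there were 5 members in Guibi-tang, 2 in Menthae Herba and 0 in the other 3 extracts, and DESeq2 called 2 in Guibi-tang and 0 in the others. By edgeR at an adjusted p under 0.05, called genes made up 3.60% of all tested genes in Guibi-tang and 0.118% in Menthae Herba. The share was 0.0118% in Saposhnikoviae Radix, 0.00589% in Soyo-san and 0% in Saengmaek-san. Shares at an unadjusted p and with DESeq2 are not given, so those member counts stand without a background.

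**Figure D4:**
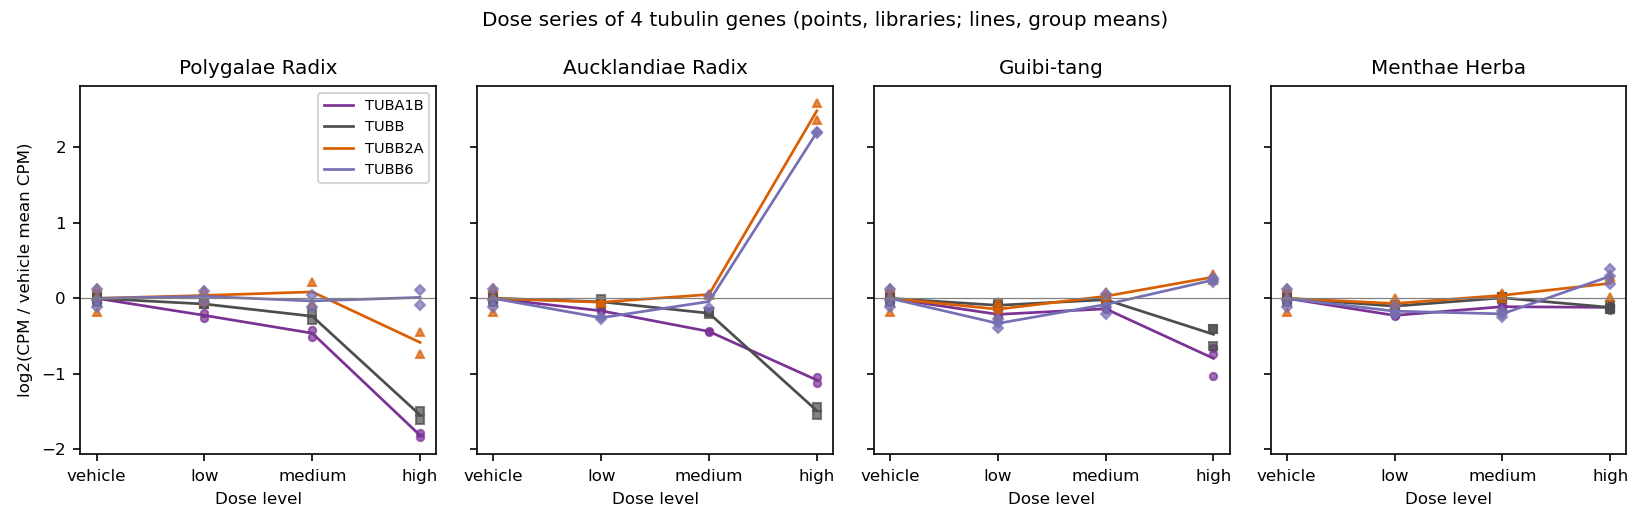
Level of TUBA1B, TUBB, TUBB2A and TUBB6 as log2 of CPM over the vehicle mean, in vehicle and at the low, medium and high dose of 4 extracts (points are libraries, lines join group means). The steepest steps lay between the medium and the high dose in Polygalae Radix and Aucklandiae Radix, where TUBB fell in both and TUBB2A rose in Aucklandiae Radix.

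Set against vehicle, high doses of Polygalae Radix, Aucklandiae Radix and Guibi-tang also held lower TUBB and TUBA1B. All comparisons with vehicle share the same 3 vehicle libraries. With Polygalae Radix at the high dose 9 members were lower than in vehicle, where 33.8% of all tested genes were, with TUBA1B at -1.81 and TUBB at -1.54 on the log2 scale. With Aucklandiae Radix at the high dose 4 members were higher (36.6% of all tested genes) and 4 lower (36.7%). TUBB2A (2.49), TUBB6 (2.20), TUBA4A (1.47) and TUBB2B (0.21) were higher, and TUBB (-1.48), TUBA1B (-1.07), TUBB4B (-0.39) and TUBA1C (-0.31) were lower. With Guibi-tang 2 members were higher, where 25.6% of all tested genes were, and 7 were lower, where 25.4% were. TUBB2A (0.29) and TUBB6 (0.24) were the higher ones in Guibi-tang, where the sum of TUBB2A and TUBB2B was not called (0.07).

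Low doses also stood below vehicle in part of the family. Every call between low dose and vehicle was a lower one, and shares of all tested genes that were lower are given in brackets. It held for 5 members with Polygalae Radix (17.4%), 7 with Aucklandiae Radix (16.4%), 7 with Menthae Herba (18.6%) and 7 with Saposhnikoviae Radix (18.5%). It held for 9 members with Saengmaek-san (18.5%), 9 with Guibi-tang (19.7%) and 6 with Soyo-san (16.6%). TUBA1C ranged from -0.46 to -0.26 and TUBA1A from -0.44 to -0.19 on the log2 scale, and TUBB from -0.12 to -0.05. With a trend in GC content and transcript length removed from each library, the counts of lower members were 4 with Polygalae Radix, Aucklandiae Radix and Menthae Herba, 3 with Saposhnikoviae Radix and Soyo-san, and 5 with Saengmaek-san and Guibi-tang. At the high dose 6 members were lower than in vehicle with Saposhnikoviae Radix and 7 with Saengmaek-san, where 19.9% and 20.0% of all tested genes were. Menthae Herba at the high dose had 2 higher and 4 lower members, where 24.0% and 24.2% of all tested genes were, and Soyo-san had 0 higher and 2 lower members, where 19.0% of all tested genes were lower. With the GC and length trend removed, the high doses gave 4 higher and 3 lower members in Menthae Herba and 2 higher and 1 lower in Soyo-san. The balance of member calls thus turned in both. The shares of all tested genes in this paragraph are those of the fit without this removal. None are given with the trend removed, so those member counts stand without a background.

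Vehicle libraries also differed in other features near the members. TUBA1B-AS1, an antisense gene at the TUBA1B locus, averaged 115 ± 63.5 CPM in vehicle, whereas its means in the treated groups did not exceed 18.3 CPM. The MC1R-TUBB3 read-through transcript averaged 7.18 ± 2.86 CPM in vehicle, against 0.53 to 3.90 CPM as means of the treated groups. Mitochondrial genes held 16.9% ± 1.90 of vehicle counts, against 11.6% to 13.2% as means of the low dose groups. The strand setting used for counting is not given in the sources used here, so reads of TUBA1B and of TUBA1B-AS1 may be mixed. The part of these differences in the tubulin values was not tested.

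Across the 25 group means, members followed each other to different degrees. Pearson's r of log2 CPM was 0.95 between TUBA1B and TUBB, 0.96 between TUBA1C and TUBB4B, and 0.93 between TUBB2A and TUBB6. Other pairs ran opposite, with -0.71 between TUBB and TUBB6, -0.52 between TUBB and TUBB2A and -0.51 between TUBA1B and TUBB6. Without the high dose groups of Polygalae Radix and Aucklandiae Radix the 3 positive values were 0.96, 0.88 and 0.90, and the 3 negative ones -0.57, -0.66 and -0.45. Not every close pair held in this way. TUBA4A and TUBB2A went from 0.93 to 0.58, TUBA1C and TUBB3 from 0.89 to 0.46, and TUBB3 and TUBB4B from 0.83 to 0.23. These values describe groups that share their scaling and, within a set, the set. Outside the tubulin genes, the 5 genes whose group means were most like the mean of the members, of 10648 genes compared, were IL32 (0.96), MAPRE2 (0.96), DSP (0.96), ILK (0.96) and CLPB (0.95). These 5 values cover all 25 groups and were not computed without the high dose groups named above. MAPRE2 encodes an end-binding protein of growing microtubules, DSP encodes the desmosomal protein desmoplakin and ILK encodes an integrin-linked kinase scaffold.

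Genes that act in the control of tubulin messages were counted next. Of the 12 genes of TTC5, SCAPER and the CCR4-NOT complex, 5 rose and 3 fell with Polygalae Radix, high against low dose, with a median log2 fold change of 0.12. Called genes made up 64.1% of all tested genes in this comparison and 69.4% with Aucklandiae Radix, 34.3% with Guibi-tang and 23.3% with Menthae Herba, which is the background to the counts of this list and of those that follow. TTC5, named for its role, averaged 25.1 CPM at the high dose and 21.0 CPM at the low dose of Polygalae Radix (log2 fold change 0.27, adjusted p = 0.0012, edgeR). The largest changes there were CNOT9 (0.51), CNOT6 (0.39) and CNOT10 (-0.33). With Aucklandiae Radix 2 of the 12 rose and 7 fell, with a median of -0.30. With this extract TTC5 averaged 19.0 CPM at the high dose and 22.8 CPM at the low dose (log2 fold change -0.25, adjusted p = 0.00334, edgeR), and the largest changes were CNOT8 (0.68), CNOT2 (-0.62) and CNOT10 (-0.60). SCAPER did not pass the test in either extract (0.05 with Polygalae Radix and 0.08 with Aucklandiae Radix), and it rose by 0.26 with Guibi-tang. With Guibi-tang 1 of the 12 rose and 3 fell, with Menthae Herba 1 rose and 1 fell, and 0 were called with the other 3 extracts.

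Of the gamma tubulins shown above, both without the peptide at the start, values are given for TUBG1 alone and do not stand for TUBG2. TUBG1 also fell. It averaged 93.5 CPM at the high dose and 183 CPM at the low dose of Polygalae Radix (log2 fold change -0.95, adjusted p = 4.85e-19, edgeR). With Aucklandiae Radix TUBG1 averaged 65.6 CPM at the high dose and 189 CPM at the low dose (log2 fold change -1.52, adjusted p = 3.91e-26, edgeR), which was close to the change of TUBB. With Guibi-tang TUBG1 fell by 0.26. Of 7 other tubulins tested among 12 listed, 1 rose and 4 fell with Polygalae Radix (median -0.50), 1 rose and 3 fell with Aucklandiae Radix (median -0.32), 2 rose and 1 fell with Menthae Herba, and 0 rose and 3 fell with Guibi-tang. The listed genes TUBA3C, TUBA3D, TUBA3E, TUBA8, TUBAL3, TUBB1, TUBB4A and TUBB8 do start with codons for the peptide. These counts therefore mix genes with and without it. TUBB1, a beta tubulin of platelets, fell by 1.76 with Aucklandiae Radix, with means of 1.13 CPM at the high dose and 3.89 CPM at the low dose.

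Factors that fold tubulin were counted as well. Newly made tubulin is passed by prefoldin to the chaperonin CCT and then assembled into dimers by the cofactors TBCA to TBCE. Of 19 such genes tested, 1 rose and 14 fell with Polygalae Radix (median -0.64), led by the CCT subunits CCT3 (-1.47), CCT7 (-1.37) and CCT5 (-1.20). With Aucklandiae Radix 7 rose and 10 fell (median -0.20). TCP1, a CCT subunit, rose by 1.07, with means of 823 CPM at the high dose and 394 CPM at the low dose, the prefoldin subunit gene PFDN1 rose by 0.88 and the cofactor gene TBCD fell by 0.94. With Menthae Herba 6 rose and 0 fell, with Guibi-tang 2 rose and 5 fell, including TBCB (-0.48), and 0 were called with the other 3 extracts.

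Microtubule-binding genes were also mixed. Of 20 genes of microtubule dynamics tested, 3 rose and 11 fell with Polygalae Radix (median -0.26). The largest falls were those of the motor gene DYNC1H1 (-1.93), of DCTN1 (-1.58) and of MAP4 (-1.51), which stabilises microtubules. With Aucklandiae Radix 12 rose and 7 fell (median 0.28). MAP1B, a microtubule-associated protein abundant in neurons, rose by 2.39, with means of 302 CPM at the high dose and 58.0 CPM at the low dose, MAPRE3 rose by 1.80 and STMN3, a tubulin-binding stathmin, fell by 1.56. With Guibi-tang 3 rose and 6 fell, including CLIP1 (0.63), KIF2C (-0.59) and STMN1 (-0.48). With Menthae Herba 5 rose and 2 fell, including MAP1B (0.43). Of 14 genes that modify tubulin, 4 rose and 8 fell with Polygalae Radix and 2 rose and 8 fell with Aucklandiae Radix. HDAC6, a tubulin deacetylase, fell by 1.78 with Polygalae Radix and by 1.02 with Aucklandiae Radix. With Guibi-tang 4 of the 14 rose and 5 fell, and TTLL12 rose by 0.54.

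Other parts of the cytoskeleton separated the extracts too. Of 19 genes of actin and intermediate filaments, 0 rose and 18 fell with Polygalae Radix (median -0.86), led by LMNA (-2.24), which encodes lamins of the nuclear envelope, and the keratin genes KRT8 (-1.94) and KRT18 (-1.52). With Aucklandiae Radix 8 rose and 6 fell (median 0.11), with LMNB1 at -1.82, and with Menthae Herba 12 rose and 2 fell (median 0.17), led by FLNA (0.40), ACTG1 (0.30) and TPM4 (0.27). With Guibi-tang 1 rose and 10 fell (median -0.18).

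Counts for genes of mitosis, in which the spindle is built from tubulin, are given for 4 extracts. These were also the extracts with the largest shares of all tested genes called, high against low dose, as listed above. That share was 0.830% with Saposhnikoviae Radix, 0.436% with Saengmaek-san and 3.95% with Soyo-san, for which mitosis counts are not given. Of 20 mitosis genes, 1 rose and 19 fell with Polygalae Radix (median -0.85), 0 rose and 19 fell with Aucklandiae Radix (median -1.07), 0 rose and 20 fell with Guibi-tang (median -0.66), and 0 rose and 17 fell with Menthae Herba (median -0.25). TOP2A, which untangles DNA before division, fell by 2.04 with Polygalae Radix, by 1.78 with Aucklandiae Radix and by 0.99 with Guibi-tang. KIF20A, a kinesin of cytokinesis, fell by 1.47 with Polygalae Radix, by 1.75 with Aucklandiae Radix and by 0.44 with Menthae Herba. In Menthae Herba no tubulin member was called lower beside these genes, apart from the TUBB4B calls of single alternatives given above. The part of the mitosis genes in the tubulin values was not tested.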

How the data were processed

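Gene-level expected counts were deposited for 60 libraries. Per the submitters' processing notes, FastQC 0.11.9, Trim Galore 0.6.5, STAR 2.7.3a and RSEM 1.3.3 were used with GRCh38. Which annotation was counted, and with what strand setting, is not given in the sources used here. Per the labels' protocols, libraries were directional, with pairs of 100 bp reads.

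The deposited expected counts were rounded and fitted with edgeR 4.0.16 (R 4.3.3; TMM scaling, filterByExpr with a minimum count of 10) over 57 libraries of 22 groups, with 35 residual degrees of freedom and 31 contrasts. Okbyeongpung-san was left out of the fit. P-values were adjusted by Benjamini-Hochberg over 16982 genes per contrast, and calls were made under 0.05. The biological coefficient of variation was 4.65%. Levels are CPM on TMM library sizes, and lengths are those of GENCODE 29 transcripts, which hold 57055 of 60675 identifiers. The code was tested on simulated data. Alternatives included DESeq2 1.42.0.

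The members and lists were chosen with earlier results of these data known. Named genes are all members, up to 3 called genes of each list with the largest change per extract (of which the text gives a part), the 5 genes with the most similar pattern, and overlapping genes. The genes TTC5, SCAPER and TUBG1 were also named for their role wherever given. Likeness used genes of at least 5 CPM in the mean. Libraries of a group differed beyond sampling noise in all 48 pairs, at 1.77 to 15.59 chi-square per gene. The positive control that the design text mentions was not analysed here.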

Additional observations from a re-analysis of the deposited data

Results flagged for a closer look

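Within 3 sets the change from low to high dose differed between extracts for single tubulin genes, by the test of the difference itself (edgeR, adjusted over all tested genes). The difference is given as log2, high minus low dose.

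Aucklandiae Radix minus Polygalae Radix, whose doses were not equal, gave 3.14 for TUBB2A, 2.45 for TUBB6, 2.26 for TUBA4A, 1.56 for TUBA1A, 1.47 for TUBB3, 1.25 for TUBB2B, 1.19 for TUBA1C, 0.80 for TUBB4B and 0.67 for TUBA1B. Menthae Herba minus Saposhnikoviae Radix gave 0.65 for TUBB2B, 0.61 for TUBB6 and 0.26 for TUBB3. Guibi-tang minus Saengmaek-san gave 0.74 for TUBB6, 0.45 for TUBB2A, -0.26 for TUBB4B, -0.45 for TUBB, -0.45 for TUBA1C and -0.69 for TUBA1B.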

How the results depend on the processing

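High against low dose, 10 members in each of 7 extracts were refitted under 10 alternatives besides the left-out libraries. A log2 fold change turned round in 2 cases, both with near copies summed: TUBA1A with Aucklandiae Radix took the value -0.57 of its sum, and TUBB2B with Guibi-tang the value 0.28.

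Counts of called members moved by over 1.5 times as follows, and the cause was not tested. Shares of all tested genes under these settings are not given, so the counts stand without a background. With the GC and length trend removed, medium against low dose gave 4 in Guibi-tang and 5 in Polygalae Radix, whereas high against low dose gave 1 in Saengmaek-san, 2 in Soyo-san and 3 in Saposhnikoviae Radix. That setting gave 3 for Saposhnikoviae Radix at the high dose against vehicle, and at the low dose against vehicle 4 in Aucklandiae Radix and Menthae Herba, 3 in Saposhnikoviae Radix and Soyo-san, and 5 in Saengmaek-san and Guibi-tang. Library totals without TMM gave, low dose against vehicle, 2 in Polygalae Radix, 3 in Aucklandiae Radix and Soyo-san and 5 in Saengmaek-san, and 1 for the high dose of Soyo-san against vehicle. With only the groups of the contrast, medium against low dose gave 0 in Polygalae Radix and 2 in Menthae Herba and Guibi-tang, high against low dose gave 2 in Saposhnikoviae Radix and Soyo-san, and Menthae Herba at the high dose against vehicle gave 3. With near copies summed, medium against low dose gave 1 in Polygalae Radix and 1 in Guibi-tang, high against low dose 0 in Saposhnikoviae Radix, and Soyo-san at the high dose against vehicle 5. DESeq2 gave 2 in Guibi-tang at the medium dose, 2 in Soyo-san at the high dose against low, and 4 in Soyo-san at the high dose against vehicle. A filter at a mean of 1 CPM gave 1, 2 and 4 in these comparisons, no filter gave 2 and 2 in the comparisons of doses, and RLE scaling gave 1 in Guibi-tang at the medium dose.

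Replicate numbers did not pair the libraries, since correlations of same-numbered deviations lay between -0.061 and 0.084 for high with low dose and between -0.121 and 0.093 for treated groups of 3 libraries with vehicle. With the replicate number as a block, all 70 results of single members kept their call, and high against low dose stayed at 9 called members in Polygalae Radix, Aucklandiae Radix and Guibi-tang, 6 in Menthae Herba, 1 in Soyo-san and Saposhnikoviae Radix and 0 in Saengmaek-san. The block within sets gave 2 in Guibi-tang at the medium dose and 2 in Soyo-san at the high dose against low.

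Leaving out single libraries gave these ranges of called members. Medium against low dose ranged from 1 to 3 in Polygalae Radix, from 1 to 2 in Aucklandiae Radix and from 0 to 2 in Guibi-tang, where it was 2 without low dose replicate 1 or medium dose replicate 3. High against low dose ranged from 9 to 9 in Polygalae Radix, 8 to 9 in Aucklandiae Radix, 4 to 6 in Menthae Herba, 7 to 9 in Guibi-tang and 0 to 1 in Soyo-san, and was 0 without any 1 library in Saposhnikoviae Radix. Low dose against vehicle ranged from 3 to 5 in Polygalae Radix (3 without low dose replicate 3), 3 to 7 in Aucklandiae Radix (3 without low dose replicate 2, 4 without low dose replicate 3) and 3 to 6 in Soyo-san (3 without low dose replicate 2). Soyo-san at the high dose against vehicle ranged from 1 to 2 (1 without high dose replicate 1), and the difference between Menthae Herba and Saposhnikoviae Radix from 2 to 5 (5 without high dose replicate 1 of Menthae Herba).

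With no TMM factor, the median of all tested genes moved by 0.16 in Polygalae Radix and 0.13 in Aucklandiae Radix, high against low dose, and by 0.10 to 0.28 in most comparisons with vehicle on the log2 scale. Each dose had at most 3 libraries, and TUBA4A, at 1.90 to 11.5 CPM, rested on the fewest counts.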
